A study of Mus musculus with 10 samples.

Results

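The 6 members described here are the 3 cardiac myosin heavy chain genes Myh6, Myh7 and Myh7b and the 3 miRNA hairpins that lie inside them, mir-208a, mir-208b and mir-499. They were taken by name, as every transcript row of the genes (4 rows of 23360 genes in all) and both arms of the hairpins (6 arms of 849 hairpins and 1698 arms in all). The rule used names and no measured value. Heart ventricles of C57BL/6 mice were compared between Trbp-cKO, a conditional knockout of Trbp, and wild type (WT). Trbp is the double-stranded RNA-binding partner of Dicer, and its mouse gene symbol is Tarbp2. Messenger RNA was sequenced at 2 weeks of age in 2 Trbp-cKO and 2 WT libraries. Small RNA came from younger ventricles, at postnatal day 2.5, with 3 Trbp-cKO and 3 WT libraries. The labels name neither the recombinase that removes Trbp nor the promoter that drives it, and do not say whether replicates came from separate animals. The p-values below therefore measure the spread between these libraries, which may be technical. In bulk tissue, fewer cells of a type and less RNA per cell cannot be told apart.

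Myosin heavy chains are the motor proteins of the thick filament, and their type sets how fast a heart muscle cell shortens. Myh6 encodes the fast alpha chain, which dominates the ventricle of the adult mouse. Myh7 encodes the slow beta chain of the fetal and the stressed heart, and Myh7b is a slow-type relative. Each gene carries a miRNA on its own strand, so that a single transcript can yield both a myosin mRNA and a miRNA precursor. The precursor hairpin is cut by Drosha in the nucleus and then by Dicer, and 1 or both of its arms, named 5p and 3p, become mature miRNA. In mice, loss of miR-208a is known to lower Myh7b and miR-499 in the adult heart, and Sox6 and Med13 are known targets of these miRNAs.

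The mature arms are shown because the similarity of their 5′ ends is what makes them a family. Sequences are from RefSeq (GRCm38.p6), 5′ to 3′, with the seed, bases 2 to 8, in capitals.
mmu-miR-208a-3p: aUAAGACGagcaaaaagcuugu
mmu-miR-208b-3p: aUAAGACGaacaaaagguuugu
mmu-miR-499-5p: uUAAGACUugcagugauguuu
mmu-miR-208a-5p: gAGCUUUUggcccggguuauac
mmu-miR-208b-5p: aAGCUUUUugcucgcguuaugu
mmu-miR-499-3p: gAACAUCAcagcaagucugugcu
The seed UAAGACG was the same in miR-208a-3p and miR-208b-3p, whose 22 bases differ at G10A, A16G and C18U (miR-208a-3p base first, positions counted from 1 at the 5′ end). Over bases 1 to 8, miR-499-5p differs from miR-208a-3p at A1U and G8U. The hexamer UAAGAC at bases 2 to 7 was therefore common to these 3 arms, and it was found in none of the other entries among the 1679 mature mouse miRNAs in the table. The opposite arms, miR-208a-5p and miR-208b-5p, share the seed AGCUUUU and differ at 6 of 22 bases, and miR-499-3p has a seed of its own.

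The whole hairpins show where the arms sit, with the arms in capitals.
Mir208a: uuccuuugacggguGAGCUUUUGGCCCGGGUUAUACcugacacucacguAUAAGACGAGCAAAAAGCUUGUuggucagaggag
Mir208b: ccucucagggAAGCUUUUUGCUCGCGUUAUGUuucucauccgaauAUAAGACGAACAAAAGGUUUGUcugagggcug
Mir499: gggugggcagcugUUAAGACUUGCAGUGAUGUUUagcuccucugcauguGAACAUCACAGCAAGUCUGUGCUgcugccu
Mir208a lies at chr14:54949060-54949142 (GRCm38, minus strand), inside Myh6 at chr14:54941921-54968017. Mir208b lies at chr14:54975700-54975776, inside Myh7 at chr14:54970684-54994626, on the same strand. Mir499 lies at chr2:155622880-155622958 on the plus strand, inside Myh7b at chr2:155611243-155634307. The gene table gives spans without exons, so the intron that holds each hairpin was not numbered.

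**Figure D1:**
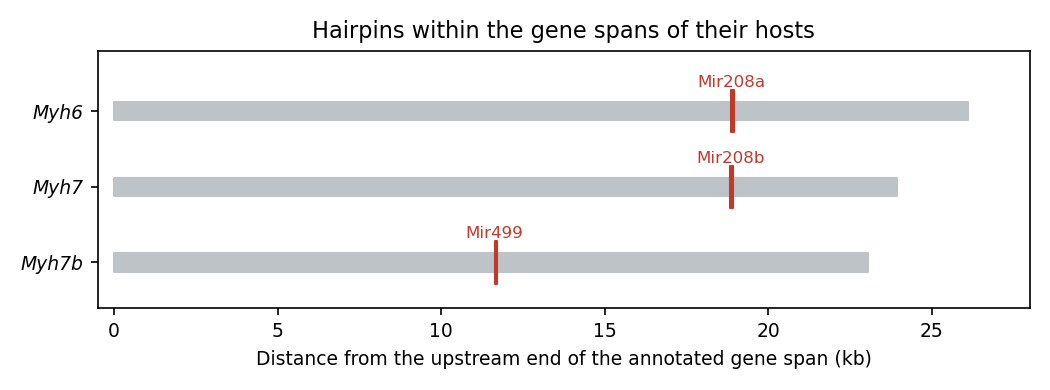
Map of the 3 hairpins (red) within the annotated spans of their host genes (grey), drawn as distance in kb from the upstream end of each span. Mir208a and Mir208b start 18875 and 18850 bases from the upstream ends of Myh6 and Myh7, and Mir499 starts 11637 bases into Myh7b.

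Tarbp2 was read first, as a check of the labels. It stood at 3.87 and 3.89 CPM (counts scaled to library size) in Trbp-cKO ventricles, against 12.7 and 11.5 CPM in WT ventricles, and fell by 1.64 on the log2 scale (SE 0.17, edgeR adjusted p = 0.000653). The mRNA libraries held 10151184 to 13540495 counts and the small RNA libraries 2201143 to 3885375. All 9 listed cardiomyocyte markers were present, with summed levels of 70073 and 74279 CPM in Trbp-cKO and 70641 and 69466 CPM in WT ventricles.

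At 2 weeks the 3 myosin genes did not move together. Myh7b was all but lost from Trbp-cKO ventricles, Myh6 was modestly higher, and Myh7 did not pass the test. With a threshold of 0.05 on the adjusted p, 2 of the 3 genes passed, and 9.37% of the 13625 genes tested did so (5.17% higher and 4.2% lower in Trbp-cKO). The median log2 fold change of all tested genes was 0.00.

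Myh7b (NM_001085378) had 18 and 24 counts in the 2 Trbp-cKO libraries, against 2471 and 2020 counts in the 2 WT libraries. Scaled for depth, this was 1.39 and 1.79 CPM in Trbp-cKO ventricles and 186 and 196 CPM in WT ventricles. The genotypes lay far apart, and replicates of each differed little beside that gap. The mean was 1.59 ± 0.283 CPM in Trbp-cKO and 191 ± 6.69 CPM in WT ventricles (SD, n = 2 each), 119-fold lower in Trbp-cKO (log2 fold change -6.89, SE 0.11, edgeR adjusted p = 1.30e-09). It was the lowest log2 fold change of all 13625 genes tested. By count, Myh7b ranked 12641 and 12356 among all genes in the Trbp-cKO libraries, against 855 and 796 in the WT libraries. The authors' deposited table gives a ratio of 0.00838 for this transcript, with a q-value of 5.95e-203.

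Other genes lie near the 2 ends of Myh7b, and none of those tested changed by nearly as much. Trpc4ap, whose span overlaps that of Myh7b, stood at 149 and 152 CPM in Trbp-cKO ventricles, against 138 and 137 CPM in WT ventricles (log2 fold change 0.13, SE 0.06, edgeR adjusted p = 0.248). Of the 7 tested neighbours of Myh7b, which also include Acss2, Gss and Procr, 0 passed edgeR's test or DESeq2's and 1 had an unadjusted p under 0.05. Among all tested genes, 9.37% passed by edgeR. The neighbours' log2 fold changes ran between -0.41 and 0.13. All but Trpc4ap were below 0, from -0.14 for Acss2os and Gss to -0.41 for Procr, which lies 116818 bases away.

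Myh6 was the gene with the most counts in every mRNA library. It took 4.18% and 4.37% of all counts in the Trbp-cKO libraries, against 3.36% and 3.36% in the WT libraries. Its level was 42540.2 and 44259.5 CPM in Trbp-cKO ventricles, and 33181 and 33037 CPM in WT ventricles. Both Trbp-cKO libraries lay above both WT libraries. The mean of 43399.9 ± 1216 CPM in Trbp-cKO was 1.31-fold that of 33109 ± 102 CPM in WT ventricles (SD, n = 2 each; log2 fold change 0.39, SE 0.05, edgeR adjusted p = 0.002). The size of the change was modest, and it ranked 1193 from the highest among all tested genes. The call was lost when either WT library was left out (edgeR adjusted p = 0.11 each time), though the log2 fold change stayed at 0.38 to 0.39 there. In the authors' deposited table, Myh6 has the same ratio of 1.31 and a q-value of 0.136.

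The 2 transcript rows of Myh6, NM_001164171 and NM_010856, carried nearly the same counts. The first had 549351 and 592212 counts in Trbp-cKO and 440052 and 340868 in WT libraries. The second was lower by 0.334% to 0.375% of that in each of the 4 libraries, so the rows give no separate measure of 2 isoforms. Fitted as separate features, both had a log2 fold change of 0.38 (SE 0.04).

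Myh7 (NM_080728) had 7548 and 9476 counts in the Trbp-cKO libraries, against 7194 and 5365 in the WT libraries. The levels were 584 and 708 CPM in Trbp-cKO ventricles and 542 and 520.0 CPM in WT ventricles. Both Trbp-cKO values lay above both WT values, but the Trbp-cKO replicates differed more from each other than the lower of them did from WT. The means were 646 ± 87.5 CPM in Trbp-cKO and 531 ± 15.9 CPM in WT ventricles (SD, n = 2 each), a log2 fold change of 0.28 (SE 0.09) that did not pass (edgeR adjusted p = 0.107). Without Trbp-cKO replicate 1 it was 0.42 and passed (0.00297), and without Trbp-cKO replicate 2 it was 0.14 and did not (0.254). With no filter on low counts Myh7 also passed (0.0491). The authors' deposited table gives a ratio of 1.21 and a q-value of 0.5.

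The summed level of the atrial list was highest in the library in which Myh7 was highest, and nearly all of it was 1 gene, Nppa. The sum was 191 and 606 CPM in Trbp-cKO libraries 1 and 2, against 82.4 and 82.1 CPM in the WT libraries. Of the 6 atrial markers, 3 were frequent enough to test and 0 passed with edgeR, whereas 1 was higher by DESeq2 and 1 by the unadjusted p. Among all tested genes, 5.17% rose by edgeR. Nppa, a natriuretic peptide gene of the atria that the fetal and the stressed ventricle also express, stood at 173 and 577 CPM in Trbp-cKO and 68.9 and 66.4 CPM in WT ventricles (log2 fold change 2.47, SE 0.88, edgeR adjusted p = 0.307). Stard10 stood at 14.6 and 22.2 CPM in Trbp-cKO and 11.5 and 11.5 CPM in WT ventricles (0.68, SE 0.20, edgeR adjusted p = 0.0862). The other listed markers were rare, with 206 counts for Myl4, 10 for Myl7, 1 for Sln and 0 for Bmp10 over all 4 libraries. Their part in the Myh7 values was not tested.

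**Figure D2:**
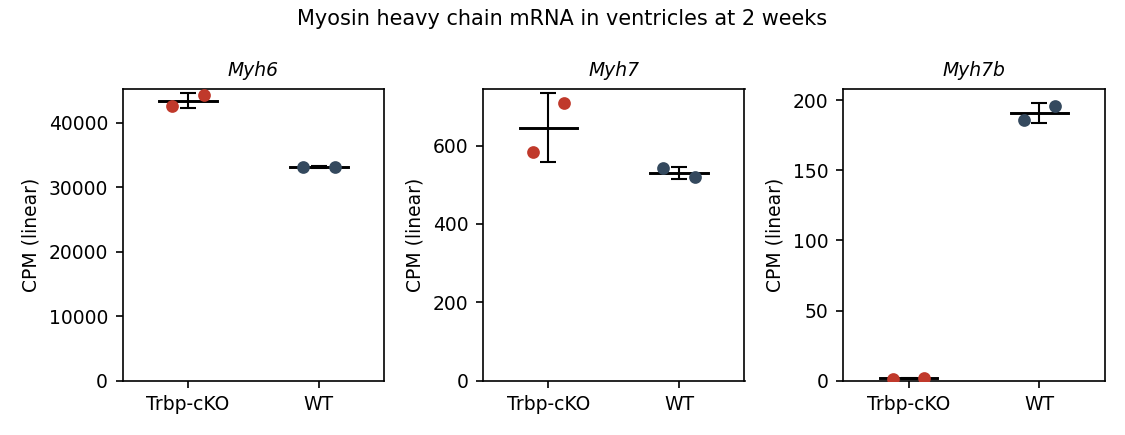
Level of each myosin heavy chain gene in CPM (linear axis from 0) in ventricles at 2 weeks, with Trbp-cKO left (red) and WT right (blue). Points are libraries, horizontal lines are means and bars are SD (n = 2 each). Myh7b lies at 1.39 and 1.79 CPM in Trbp-cKO against 186 and 196 CPM in WT, whereas Myh6 and Myh7 are 1.31-fold and 1.22-fold the WT mean.

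The balance of the alpha and beta chain mRNAs was compared within libraries, which needs no scaling for depth. Counts were not corrected for transcript length, so the share describes counts and not molecules. Of the counts of Myh6 and Myh7 together, Myh7 held 1.36% and 1.57% in the Trbp-cKO libraries, against 1.61% and 1.55% in the WT libraries. The genotypes overlapped. The mean share was 1.47 ± 0.155% in Trbp-cKO and 1.58 ± 0.0417% in WT ventricles (SD, n = 2 each), with a two-sided exact permutation p of 0.667, where 0.333 is the smallest that 2 against 2 libraries allow. Myh6 and Myh7 are close copies, and how reads that match both were counted is not given in the sources used here. Myh7 counts were 0.0137 and 0.016 of the Myh6 counts in the Trbp-cKO libraries and 0.0163 and 0.0157 in the WT libraries, and what part of them came from Myh6 was not tested.

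The mRNA table also has rows for the hairpins themselves and for Mhrt, a long non-coding RNA that runs antisense to Myh7. Reads in these rows can come from the host transcript, and whether the counting used strand is not given in the sources used here. Mir208a, within Myh6, had 67 and 45 counts in Trbp-cKO and 48 and 40 counts in WT libraries (log2 fold change 0.19, SE 0.26, edgeR adjusted p = 0.72), and its direction turned without Trbp-cKO replicate 1 (-0.15). Mir208b, within Myh7, had 373 and 466 counts in Trbp-cKO and 339 and 287 counts in WT libraries (0.26, SE 0.11, edgeR adjusted p = 0.191). Neither row passed. Mir499 was listed with 0 and 0 counts in Trbp-cKO and 3 and 0 counts in WT libraries. This row was too rare to be tested, so no fold is given.

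Mhrt stood at 114 and 136 CPM in Trbp-cKO ventricles, against 100.4 and 101 CPM in WT ventricles. Its order over the libraries, with Trbp-cKO replicate 2 highest, was that of Myh7 among the Trbp-cKO libraries. The log2 fold change of 0.31 (SE 0.09) missed the threshold (edgeR adjusted p = 0.0569). It was past it with no filter on low counts (0.0149) and without Trbp-cKO replicate 1 (0.43, adjusted p = 0.00452). It was not past it without Trbp-cKO replicate 2 (0.18, adjusted p = 0.203), without WT replicate 1 or 2 (0.288 and 0.281) or with DESeq2 (0.134). Around Myh6 and Myh7, 0 of the 7 tested neighbours passed by edgeR, by DESeq2 or by an unadjusted p under 0.05. Among all tested genes, 9.37% passed by edgeR. The neighbours' log2 fold changes ran between -0.56 for Zfhx2os and 0.34 for Cmtm5, whose span overlaps Myh6.

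At postnatal day 2.5 all 6 arms were lower in Trbp-cKO ventricles. The main arm was 11.2-fold lower for miR-499, 6.63-fold for miR-208a and 1.83-fold for miR-208b. All 6 passed the test as lower in Trbp-cKO, where 10.5% of the 401 tested arms did so, and the median log2 fold change of all tested arms was -0.02. The 2 arms of miR-499 and the 2 arms of miR-208a ranked between the third and the seventh lowest log2 fold change of the 401.

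miR-499-5p, the arm of mir-499 with more counts, had 540, 459 and 657 counts in the Trbp-cKO libraries, against 5258, 11101 and 7396 in the WT libraries. Its level was 212, 186 and 294 CPM in Trbp-cKO ventricles and 2105, 3011 and 2609 CPM in WT ventricles. Every Trbp-cKO library lay far below every WT library. The mean of 230.3 ± 56.3 CPM in Trbp-cKO was 11.2-fold lower than that of 2575 ± 454 CPM in WT ventricles (SD, n = 3 each; log2 fold change -3.48, SE 0.20, edgeR adjusted p = 1.46e-06). The opposite arm, miR-499-3p, had only 10, 13 and 22 counts in Trbp-cKO libraries, against 103, 211 and 137 in WT libraries, and was 7.82-fold lower (log2 fold change -2.97, SE 0.28, edgeR adjusted p = 1.14e-05). In the authors' deposited table the log2 fold changes are -3.44 for the 5p arm and -3.02 for the 3p arm.

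miR-208a-3p had 578, 567 and 516 counts in the Trbp-cKO libraries, against 2835, 5998 and 5076 in the WT libraries. The level was nearly constant among Trbp-cKO ventricles at 227, 229 and 231 CPM, and varied more among WT ventricles at 1135, 1627 and 1790.5 CPM. The groups did not overlap. The mean of 229 ± 2.03 CPM in Trbp-cKO was 6.63-fold lower than that of 1518 ± 341 CPM in WT ventricles (SD, n = 3 each; log2 fold change -2.73, SE 0.17, edgeR adjusted p = 6.27e-07). miR-208a-5p stood at 47.4, 55 and 55 CPM in Trbp-cKO ventricles, against 196, 228 and 232 CPM in WT ventricles, and was 4.17-fold lower (log2 fold change -2.06, SE 0.15, edgeR adjusted p = 1.46e-06). The authors' deposited table has -2.78 for the 3p arm and -2.02 for the 5p arm.

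miR-208b-3p was by far the most frequent of the 6 arms. It had 43722, 47234 and 48923 counts in the Trbp-cKO libraries, or 1.68%, 1.95% and 2.22% of all counts, and 65242, 151153 and 110769 counts in the WT libraries, or 2.75%, 3.89% and 3.85%. It ranked from 11 to 12 among all arms in the Trbp-cKO libraries and at 10 in each WT library. Some other striated muscle arms are nearly absent from the counts, with 4 for miR-1a-1-3p and 0 for miR-133a-1-3p over all 6 libraries. These ranks and shares therefore describe the arms as listed. Its level was 17139, 19099.6 and 21859 CPM in Trbp-cKO ventricles and 26125, 41002 and 39072 CPM in WT ventricles. WT replicate 1 lay closer to the Trbp-cKO libraries than to the other 2 WT libraries, and no value overlapped. The mean of 19366 ± 2372 CPM in Trbp-cKO was 1.83-fold lower than that of 35399.7 ± 8090.0 CPM in WT ventricles (SD, n = 3 each; log2 fold change -0.87, SE 0.17, edgeR adjusted p = 0.00366).

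miR-208b-5p was rare, with 20, 26 and 15 counts in Trbp-cKO libraries, against 32, 77 and 40 in WT libraries. It was 1.92-fold lower (log2 fold change -0.94, SE 0.29) and narrowly passed (edgeR adjusted p = 0.0427). The call was lost with DESeq2 (adjusted p = 0.114) and without any 1 library other than WT replicate 1 (edgeR adjusted p between 0.053 and 0.207). The authors' deposited table gives a q-value of 0.042 for this arm.

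**Figure D3:**
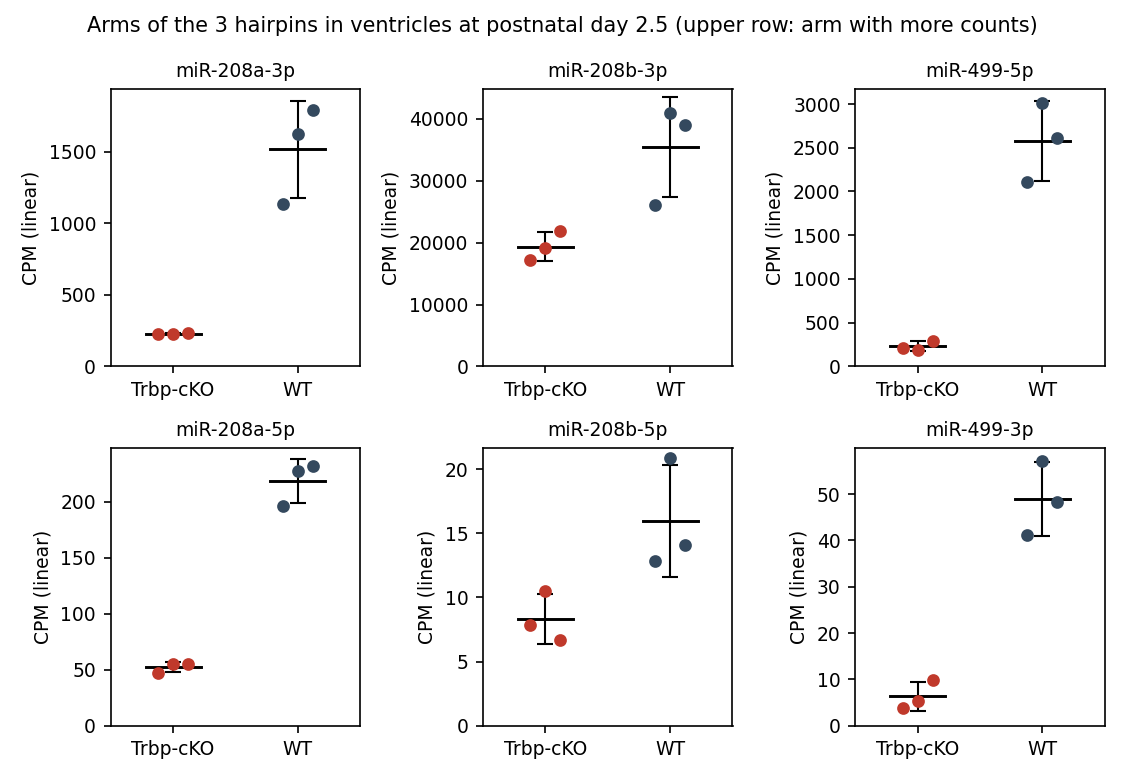
Level of each arm in CPM (linear axes from 0) in ventricles at postnatal day 2.5, with the arm of each hairpin that has more counts in the upper row, and Trbp-cKO left (red) and WT right (blue). Points are libraries, lines are means and bars are SD (n = 3 each). In every panel the 3 Trbp-cKO libraries lie below the 3 WT libraries, with mean folds that run from 1.83 for miR-208b-3p to 11.2 for miR-499-5p.

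**Figure D4:**
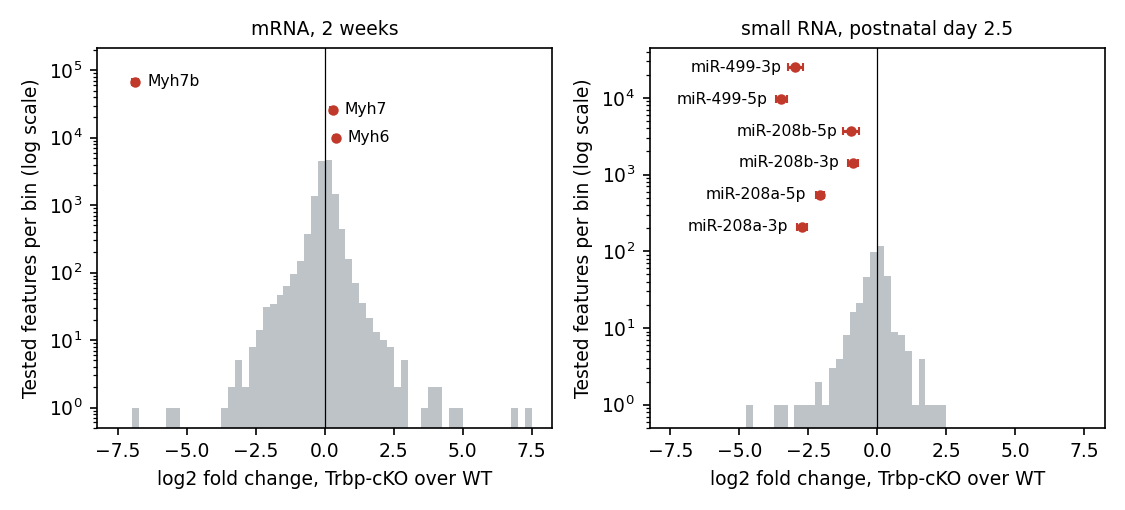
Log2 fold changes of the members (red points, bars are SE) above histograms of all tested features (grey, counts on a log axis); the height of a point has no meaning. The 13625 genes at 2 weeks are left and the 401 arms at postnatal day 2.5 are right, and positive values are higher in Trbp-cKO. Myh7b lies at the far left end at -6.89, Myh6 and Myh7 lie close to the bulk at 0.39 and 0.28, and all 6 arms lie left of 0.

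The make-up of the family was then described within each library. Summed over miR-208a-3p, miR-208b-3p and miR-499-5p, whose hexamer UAAGAC is shown above, the level was 17577, 19514 and 22383 CPM in Trbp-cKO ventricles, against 29366, 45640.0 and 43472 CPM in WT ventricles. The mean of 19825 ± 2418 CPM in Trbp-cKO was 0.502 of that of 39492 ± 8837 CPM in WT ventricles (SD, n = 3 each), a description with no test. Within the sum, miR-208b-3p held 97.5% to 97.9% in Trbp-cKO and 89% to 89.9% in WT ventricles. miR-499-5p held 0.951% to 1.31% in Trbp-cKO and 6% to 7.17% in WT ventricles, and miR-208a-3p held 1.03% to 1.29% in Trbp-cKO and 3.56% to 4.12% in WT ventricles.

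The arms that share a whole seed, miR-208b-3p and miR-208a-3p, were compared as a ratio of counts within each library. There were 75.6, 83.3 and 94.8 counts of miR-208b-3p for each count of miR-208a-3p in Trbp-cKO libraries, and 23, 25.2 and 21.8 in WT libraries. The groups were well separated. The log2 ratio averaged 6.40 ± 0.16 in Trbp-cKO and 4.54 ± 0.11 in WT ventricles (SD, n = 3 each), a difference of 1.85 with a two-sided exact permutation p of 0.1, the smallest that 3 against 3 libraries allow. Reads of these arms are alike except at 3 bases, and how a read that fits both was counted is not given in the sources used here. miR-208a-3p amounted to 1.32%, 1.2% and 1.05% of miR-208b-3p counts in Trbp-cKO libraries and to 4.35%, 3.97% and 4.58% in WT libraries, and what part of these counts came from miR-208b-3p was not tested.

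miR-499-5p was also set against miR-208a-3p. The ratio of counts was 0.934, 0.81 and 1.27 in Trbp-cKO libraries, against 1.85, 1.85 and 1.46 in WT libraries. The lowest WT library lay above the highest Trbp-cKO library by a small margin. The log2 ratio averaged -0.02 ± 0.33 in Trbp-cKO and 0.77 ± 0.20 in WT ventricles (SD, n = 3 each), a difference of -0.79, again with the smallest two-sided exact permutation p of 0.1.

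The 2 arms of a hairpin are cut from the same precursor, and their shares were compared within each library. Of 134 hairpins with both arms frequent enough to test, 23.1% passed the test of an altered arm share, and of the 3 hairpins here mir-208a did. Its 5p arm held 17.3%, 19.3% and 19.2% of the hairpin's counts in Trbp-cKO libraries, against 14.7%, 12.3% and 11.5% in WT libraries. The groups did not overlap, and the share averaged 18.6 ± 1.15% in Trbp-cKO and 12.8 ± 1.7% in WT ventricles (SD, n = 3 each). The 3p arm thus fell more than the 5p arm, by a log2 difference of -0.65 between the arms (SE 0.17, edgeR interaction test, adjusted p = 0.00349). What made the shares differ, and the part that reads fitting miR-208b-3p had in them, was not tested.

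The other hairpins did not pass this test. For mir-499, the 3p arm held 1.82%, 2.75% and 3.24% of counts in Trbp-cKO libraries, against 1.92%, 1.87% and 1.82% in WT libraries, and the share was more scattered in Trbp-cKO ventricles (log2 change of 3p over 5p 0.51, SE 0.24, edgeR adjusted p = 0.14). For mir-208b, the 5p arm held 0.0438 ± 0.0123% in Trbp-cKO and 0.0453 ± 0.00806% in WT ventricles (SD, n = 3 each). Its log2 change of 0.05 (SE 0.29, edgeR adjusted p = 0.942) rests on 15 to 77 counts of the rarer arm in a library.

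**Figure D5:**
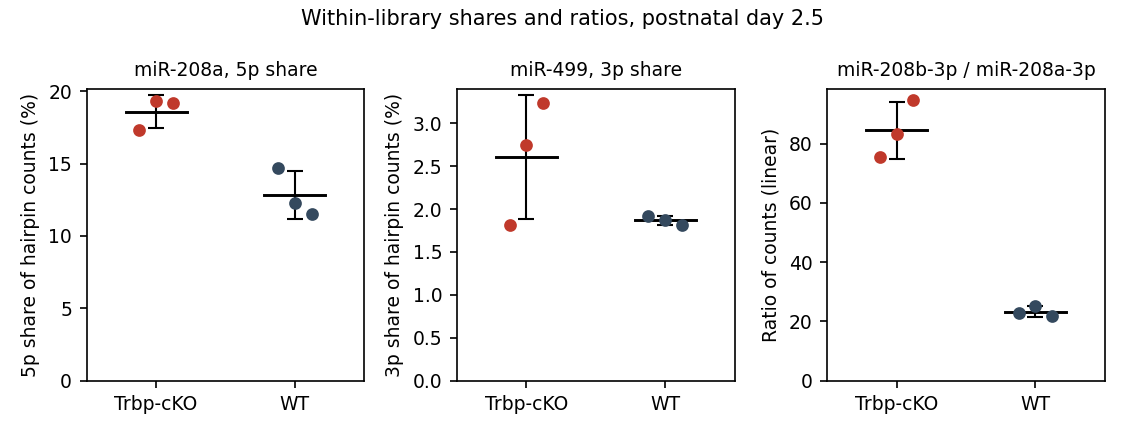
Shares and ratios of counts within small RNA libraries at postnatal day 2.5 (linear axes from 0), with Trbp-cKO left (red) and WT right (blue); points are libraries, lines are means and bars are SD (n = 3 each). The miR-208a 5p share is higher in every Trbp-cKO library, the miR-499 3p share overlaps between genotypes, and the ratio of miR-208b-3p to miR-208a-3p is 75.6 to 94.8 in Trbp-cKO against 21.8 to 25.2 in WT.

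Each host can be set beside its main miRNA arm only across ages, since mRNA was measured at 2 weeks and small RNA at postnatal day 2.5. Myh7b was at 0.00841 of its WT level and miR-499-5p at 0.0893 of its own, so that both fell. Myh6 was at 1.31 of its WT level whereas miR-208a-3p was at 0.151 of its own. Myh7 was at 1.22 of its WT level, with no call, and miR-208b-3p at 0.547 of its own. Whether host and miRNA differ in this way at 1 age was not tested.

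The promoters of Myh7b and Myh7 are shown because Myh7b was the gene with the deepest fall, and because Sox6, a regulator that binds the SOX core motif, is among the regulators below that changed. Both run from 250 bases before a RefSeq start to 50 bases after it, for Myh7 the more upstream of its 2 RefSeq starts (GRCm38.p6), 5′ to 3′ on the gene's strand, at chr2:155610993-155611292 (plus strand) and chr14:54994577-54994876 (minus strand).
Myh7b: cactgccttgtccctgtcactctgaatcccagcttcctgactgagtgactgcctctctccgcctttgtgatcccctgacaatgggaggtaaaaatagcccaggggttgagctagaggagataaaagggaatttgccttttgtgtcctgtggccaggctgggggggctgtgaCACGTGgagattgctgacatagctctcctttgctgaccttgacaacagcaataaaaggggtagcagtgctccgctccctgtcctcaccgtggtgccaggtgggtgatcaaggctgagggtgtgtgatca
Myh7: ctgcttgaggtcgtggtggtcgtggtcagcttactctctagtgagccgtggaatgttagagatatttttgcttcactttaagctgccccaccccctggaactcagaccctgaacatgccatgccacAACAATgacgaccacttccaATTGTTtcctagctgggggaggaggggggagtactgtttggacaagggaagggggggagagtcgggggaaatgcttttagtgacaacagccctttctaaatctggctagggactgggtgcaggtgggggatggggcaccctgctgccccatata
Capitals mark motif matches on either strand. The sequence CACGTG, 1 form of the E-box, stood once in the Myh7b window, 79 bases before the start. Of all 32851 promoter windows, 7.15% held it. Other forms of the E-box were not searched. The SOX core AACAAT, searched on both strands, began 124 and 104 bases before this start of Myh7, or 201 and 181 bases before its other start, and 10.7% of all windows held at least 1. The Myh7b window had no match to the SOX core. The Myh6 window (chr14:54966558-54966857) had neither CACGTG nor the SOX core. None of these windows had a match to the MEF2 motif, which 3.19% of all windows held. A match of letters is a description and not a site.

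Of 18 listed transcriptional regulators of myosin heavy chain genes, all were tested, and 3 rose and 0 fell by edgeR and by DESeq2. By an unadjusted p under 0.05, 5 rose and 0 fell, and the median log2 fold change was 0.11. Among all tested genes, 5.17% rose and 4.2% fell by edgeR. Sox6, a repressor of slow muscle genes, averaged 118 ± 6.08 CPM in Trbp-cKO and 39.9 ± 0.746 CPM in WT ventricles (SD, n = 2 each; log2 fold change 1.56, SE 0.07, edgeR adjusted p = 5.24e-06). Med13, a subunit of the Mediator complex that links regulators to RNA polymerase, averaged 166 ± 6.97 CPM in Trbp-cKO and 119 ± 6.32 CPM in WT ventricles (0.48, SE 0.07, edgeR adjusted p = 0.00322). Mef2a, a muscle transcription factor, was at 0.32 (SE 0.07, edgeR adjusted p = 0.0162). The remaining 15 did not pass. They include the thyroid hormone receptors Thra (0.11) and Thrb (0.12), which act in the switch between the beta and alpha chains. Tead1 (0.00) and Gata4 (-0.08) are also among them. Without WT replicate 2, Med13 and Mef2a lost their calls (edgeR adjusted p = 0.0902 and 0.147), as did Mef2a without WT replicate 1 (0.196).

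Among the other 11 myosin heavy chain genes listed, 4 were frequent enough to test. Of these 1 rose and 0 fell by edgeR, by DESeq2 and by the unadjusted p, with a median of 0.03, where 5.17% of all tested genes rose by edgeR. Myh10, a non-muscle chain, averaged 168 ± 2.72 CPM in Trbp-cKO and 130.1 ± 4.91 CPM in WT ventricles (SD, n = 2 each; log2 fold change 0.37, SE 0.06, edgeR adjusted p = 0.00782), a call lost without either WT library (adjusted p = 0.0887 and 0.151). The skeletal chain genes Myh1, Myh2 and Myh4 had 24, 1 and 11 counts over all 4 libraries.

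The partners of the heavy chains in the thick filament moved both ways. Of 12 tested genes for light chains, thick filament proteins and myosin folding factors, 4 rose, 6 fell and 2 did not pass by edgeR, with a median of -0.05. By DESeq2, 3 rose and 5 fell. Among all tested genes, 5.17% rose and 4.2% fell by edgeR. Myl3, the ventricular essential light chain, averaged 1983 ± 231 CPM in Trbp-cKO and 6637 ± 126 CPM in WT ventricles (SD, n = 2 each; log2 fold change -1.74, SE 0.08, edgeR adjusted p = 1.02e-05). Mybpc3, the cardiac myosin-binding protein C, was lower at -0.47 (SE 0.06, edgeR adjusted p = 0.00172). Myom2, an M-band protein, was higher at 0.56 (SE 0.07, adjusted p = 0.00204), as was Unc45b, a myosin chaperone, at 0.46 (SE 0.07, adjusted p = 0.00337). The calls of Mybpc3 and Unc45b were lost without either WT library (edgeR adjusted p between 0.0695 and 0.0902), and that of Myom2 without WT replicate 2 (0.0793).

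Of the other striated muscle miRNAs, 5 arms were tested, of which 1 rose and 1 fell, and 16.7% of all arms passed in either direction. miR-1a-1-5p averaged 14.9 ± 0.743 CPM in Trbp-cKO and 8.43 ± 0.0327 CPM in WT ventricles (SD, n = 3 each; log2 fold change 0.82, SE 0.23, edgeR adjusted p = 0.0282), and lost its call with DESeq2 (adjusted p = 0.115) and without any 1 library except WT replicate 1. miR-133b-3p averaged 7.9 ± 1.75 CPM in Trbp-cKO and 17.4 ± 2.82 CPM in WT ventricles (-1.14, SE 0.26, edgeR adjusted p = 0.0097), and lost its call without Trbp-cKO replicate 1 (0.0512). Counts for the usual main arm of miR-1 were only 4 for miR-1a-1-3p over all 6 libraries, so these values describe arms as the table lists them.

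Markers of other cell types moved in part with genotype. By edgeR, 5.17% of all tested genes rose and 4.2% fell, to be read beside each gene list here. At 2 weeks 4 of 7 fibroblast markers fell, namely Col1a1 (-0.63), Col1a2 (-0.55), Col3a1 (-0.40) and Postn (-0.56). Pdgfra (0.09), Dcn (0.11) and Tcf21 (-0.05) did not pass. The summed levels of the 7 were 2479 and 2852 CPM in Trbp-cKO and 3503 and 3144 CPM in WT ventricles. Of 5 tested erythroid markers 4 fell by edgeR and 3 by DESeq2, with Hba-a1 and Hba-a2 listed at the same value. Erythroid sums were 902 and 1052 CPM in Trbp-cKO against 1122 and 1389 CPM in WT ventricles. Of 6 endothelial markers, Tek rose by edgeR and none by DESeq2. The smooth muscle and the macrophage and leukocyte lists had 0 calls by edgeR, DESeq2 or the unadjusted p. The skeletal muscle list had 0 by edgeR, and 1 higher and 1 lower by DESeq2 and by the unadjusted p. Of the 9 cardiomyocyte markers 4 rose and 1 fell by edgeR, and 3 rose and 1 fell by DESeq2. Among the small RNA lists, endothelial, erythroid and leukocyte arms had 0 calls by edgeR, DESeq2 or the unadjusted p. By edgeR, 16.7% of all tested arms passed in either direction, to be read beside the small RNA lists. The smooth muscle arms miR-145a-3p (2.49) and miR-143-5p (-2.35, 442 counts over all 6 libraries) passed in opposite directions. The other arms of these hairpins, miR-145a-5p (0.06) and miR-143-3p (-0.11), did not pass. The part of these cell types in the myosin values was not tested.

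Genes with the most similar pattern were sought by the distance between log2 CPM profiles over the 4 mRNA libraries, among 10556 genes. Nearest to Myh7b were Hopx at a distance of 1.34, Tnnc1 at 3.1 and Iqgap3 at 4.23, which are a homeodomain cofactor, the cardiac and slow troponin C and a scaffold protein. Hopx averaged 10.5 ± 1.02 CPM in Trbp-cKO and 479.8 ± 2.98 CPM in WT ventricles (SD, n = 2 each; log2 fold change -5.51). Tnnc1 and Iqgap3 had log2 fold changes of -3.70 and -2.66, against -6.89 for Myh7b, so they were nearest without being close. Myh6 and Myh7 changed little and had many close profiles, led by Galnt2 at 0.0202 and Mb21d2 at 0.0195.

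Among 343 arms over 6 libraries, miR-194-1-5p was nearest to miR-499-5p, at a distance of 0.721. It averaged 5.14 ± 2.04 CPM in Trbp-cKO and 62.9 ± 23.6 CPM in WT ventricles (SD, n = 3 each; log2 fold change -3.62). For miR-208a-3p the nearest were its own 5p arm at 0.871, miR-499-3p at 0.932 and miR-143-5p at 1.06. miR-208b-3p was nearest to miR-374b-5p at 0.178, miR-148b-3p at 0.221 and miR-425-5p at 0.237, whose log2 fold changes were -0.79, -0.99 and -0.80, and none of its nearest arms was a member.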

How the data were processed

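Ventricle RNA from Trbp-cKO and WT hearts was sequenced as mRNA (4 libraries) and small RNA (6 libraries). Trizol RNA from frozen tissue went into Illumina TruSeq kits, per the labels' protocols. The build mm10 and the tools Bowtie 0.12.9, SAMtools 0.1.16, cutadapt 0.9.5, CASAVA 1.8.2 and edgeR are listed, with no roles, per the submitters' processing notes. How reads were counted is not given in the sources used here.

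The authors deposited raw counts per transcript and per miRNA arm. The deposited mRNA table also holds a ratio with a p-value and q-value, and the deposited miRNA table p-values, q-values and a log2 fold change, per the file headers. These entered no test.

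For each gene, the transcript row with most counts was used. The 110 unnamed rows, 0.117% to 0.14% of counts, were left out. Each assay was fitted alone in R 4.3.3 with edgeR 4.0.16 (filterByExpr, TMM scaling, quasi-likelihood F-test, Benjamini-Hochberg over all features, threshold 0.05). CPM use TMM-scaled library sizes. Arm share was the interaction of arm and genotype with library as a block. SE is the log2 fold change divided by the square root of F. DESeq2 1.42.0, other scalings, filters and transcript choices, and left-out libraries were alternatives, and the fits were tested on simulated counts. The members and lists were chosen with earlier results of these data known. Named from a list were up to 4 calls with the smallest p (2 genes where none passed), up to 3 genome neighbours on each side, and from patterns the 3 nearest with a mean of at least 5 CPM (genes) or 10 CPM (arms). Mhrt, the hairpin rows of the mRNA table, Myl4, Myl7, Sln and Bmp10 were named outside this rule after their values were seen. So were Myh1, Myh2, Myh4, Thra, Thrb, Tead1, Gata4, Pdgfra, Dcn, Tcf21, miR-1a-1-3p, miR-133a-1-3p, miR-143-3p and miR-145a-5p.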

Additional observations from a re-analysis of the deposited data

How the results depend on the processing

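Directions of the member genes and of the 6 arms held under every alternative run, and the calls of Myh7b, both arms of miR-208a and miR-499, and miR-208b-3p held too. Myh7 passed with no filter (log2 fold change 0.28), and miR-208b-5p was lost with DESeq2 (-0.92). Leaving out each library in turn gave 0.36 to 0.42 for Myh6, 0.14 to 0.42 for Myh7, -7.09 to -6.73 for Myh7b, -1.14 to -0.69 for miR-208b-5p and -1.04 to -0.76 for miR-208b-3p. Genes past the threshold, 1277 in the fit reported, numbered 768 with DESeq2 and 275 to 1171 with 1 library left out (275 without WT replicate 1, 297 without WT replicate 2). Arms past it, 67 in the fit reported, numbered 42 with both arms summed and 47 to 116 with 1 library left out (116 without WT replicate 1). Hairpins with an altered arm share numbered 31, and 20 to 46 with 1 library left out (20 on leaving out WT replicate 2 or Trbp-cKO replicate 1). The mir-208b arm share, not called, ran from -0.16 to 0.25 there, and reversed on leaving out WT replicate 2 (-0.06) or Trbp-cKO replicate 3 (-0.16). Neighbours and rows without a call turned at Efs (-0.01 with total count scaling, -0.02 to 0.08 with a library left out), Cmtm5 (-0.11 to 0.88), Zfhx2os (-0.96 to 0.09), Acss2os (-0.38 to 0.18), Edem2 (-0.52 to 0.02) and Mir208a (-0.15 to 0.47). The cause of these shifts was not tested.

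Replicate numbers are shared between genotypes in the titles. Same-numbered libraries deviated together weakly, with correlations of 0.17 in both mRNA pairs and of 0.11, 0.10 and 0.04 in the small RNA pairs. With 2 libraries per genotype, both mRNA pairs give the same value by construction and are not separate checks. The labels state no pairing, so the fit reported does not take the number as one. Each Trbp-cKO small RNA library correlated best with the WT library of its own number, which is a hint from the data and not from the design. With a replicate block, 988 genes and 63 arms passed, Myh6 was at 0.39 (edgeR adjusted p = 0.0384), Myh7 at 0.28 (0.146), Myh7b at -6.90 (1.21e-06), miR-208a-3p at -2.70 (0.000172), miR-208b-3p at -0.85 (0.0121) and miR-499-5p at -3.49 (0.000172). miR-1a-1-5p was at 0.82 and lost its call (0.0575). Depth limits Myh7b, miR-208b-5p, miR-499-3p and the Mir499 row, which had counts of 26 or fewer in each Trbp-cKO library.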
